A study of Mus musculus with 96 samples.

Results

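The enzymes that break down purine and pyrimidine nucleotides were followed in mouse liver through 10 genes chosen by name, namely Nt5e, Upp2, Dpyd, Dpys, Upb1, Xdh, Uox, Ada, Pnp and Gda. Of these, 9 were matched by their GENCODE M21 identifier to a row among the 38924 genes of the deposited tables. Pnp was not matched by that identifier and was not analysed here. Nt5e and Upp2 were singled out because their total expression had already been seen to differ in these mice, so their total levels are described without a p-value. Liver messenger RNA was measured by poly-A selected, unstranded RNA sequencing in 48 males bred by crossing NOD/ShiLtJ, a laboratory strain that develops autoimmune diabetes, with PWK/PhJ, whose ancestors were wild-caught, in both directions. All mice were F1 hybrids with 1 NOD and 1 PWK copy of each autosome, and the first-named strain of NODxPWK or PWKxNOD was taken to be the mother's. Older and younger mice of each cross received food with 0.050 g/kg (high) or 0.009 g/kg (normal) of cholecalciferol, which is vitamin D3. The groups, each of 6 mice, were therefore older and younger NODxPWK mice on the high or the normal diet and older and younger PWKxNOD mice on the high or the normal diet. The age labels read 24 or 25 for older and 8 for younger mice with no unit, whereas the protocol names 15 and 24 weeks, so ages are given only as older and younger.

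Nucleotides that are not reused are stripped of their phosphate, and the resulting nucleosides are split into a sugar and a base. Uracil and thymine are then reduced, opened and cut to beta-amino acids in a chain of reactions that is most active in liver. Adenosine and guanine are turned into hypoxanthine and xanthine, which xanthine dehydrogenase oxidises to uric acid, and mice, unlike humans, degrade uric acid further with urate oxidase.

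The messenger levels per kilobase of exon spanned a wide range, and the order of some neighbours differed between mice. Uox, urate oxidase, was highest with 162.5 ± 27.2 CPM (counts scaled to a common library size) per kilobase (mean ± SD, n = 48), and it exceeded the next gene in 48 of 48 mice. Dpys (53.7 ± 7.67), Upb1 (45.6 ± 4.45), Dpyd (39.7 ± 5.26) and Upp2 (30.8 ± 15.4 CPM per kilobase) followed, and the order of these neighbours was reversed in some mice. Dpys exceeded Upb1 in 40 mice, Upb1 exceeded Dpyd in 41 and Dpyd exceeded Upp2 in 34, so the ranges of these 4 genes overlapped. Xdh (5.02 ± 0.810) and Gda (3.63 ± 0.956 CPM per kilobase) formed a lower pair. Ada (0.756 ± 0.401) and Nt5e (0.518 ± 0.324 CPM per kilobase) were lowest, and Ada exceeded Nt5e in 35 of 48 mice. In deposited counts this meant a mean of 4258 for Uox and of only 22.9 for Nt5e and 7.60 for Ada per mouse.

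The promoters of Nt5e and Upp2 are shown because these genes had the largest differences in total level among the 9. Each sequence runs 5′ to 3′ on the plus strand of GRCm38.p6 from 250 bases before to 50 bases after a RefSeq start site, and capitals mark motif matches. RefSeq gave 2 start sites for Upp2, and 7 of the 9 genes had a promoter in its table. The windows were chr9:88327359-88327658 for Nt5e, chr2:58567084-58567383 for the first site of Upp2 and chr2:58754934-58755233 for the second.
Nt5e: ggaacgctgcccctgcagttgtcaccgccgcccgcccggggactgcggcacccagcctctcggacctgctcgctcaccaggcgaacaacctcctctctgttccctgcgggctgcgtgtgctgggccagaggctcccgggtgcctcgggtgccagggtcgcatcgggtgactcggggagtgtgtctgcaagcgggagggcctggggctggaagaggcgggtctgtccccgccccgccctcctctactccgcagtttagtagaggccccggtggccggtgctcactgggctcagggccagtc
Upp2, site 1: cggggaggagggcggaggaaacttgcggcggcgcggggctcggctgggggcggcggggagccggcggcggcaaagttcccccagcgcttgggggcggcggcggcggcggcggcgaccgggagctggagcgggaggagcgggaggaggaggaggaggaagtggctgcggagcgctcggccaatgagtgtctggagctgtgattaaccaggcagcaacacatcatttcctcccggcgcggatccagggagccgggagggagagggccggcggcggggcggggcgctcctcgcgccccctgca
Upp2, site 2: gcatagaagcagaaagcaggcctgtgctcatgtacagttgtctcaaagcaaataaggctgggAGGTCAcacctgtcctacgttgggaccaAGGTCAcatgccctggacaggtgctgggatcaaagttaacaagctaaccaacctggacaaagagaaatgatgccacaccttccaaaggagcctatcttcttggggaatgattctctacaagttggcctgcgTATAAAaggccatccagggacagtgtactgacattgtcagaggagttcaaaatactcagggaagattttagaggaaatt
The motifs searched on both strands were the E-box CACGTG and the D-box TTATGNAA, which clock factors can bind, the nuclear receptor half-site AGGTCA and the TATA box TATAAA. The Nt5e window held none of them and had a GC content of 71.0%. The first Upp2 window also held none and had 75.3% GC, against a median of 52.7% over the 32851 promoters of the table. The second Upp2 window had 47% GC and held 2 AGGTCA matches and 1 TATAAA match. Of all promoters of this length, 7.15% held CACGTG, 3.38% TTATGNAA, 16.26% AGGTCA and 13.62% TATAAA. A match is a description of the letters and not of a bound site.

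Nt5e encodes the cell-surface ecto-5′-nucleotidase CD73, which removes the phosphate of extracellular AMP to give adenosine (chromosome 9, 88327197 to 88372092, plus strand, GRCm38, ENSMUSG00000032420). Its messenger was lower in older than in younger mice in both crosses and on both diets. In NODxPWK mice on the high diet, Nt5e had 0.999, 1.63 and 5.19 CPM (lowest, median and highest of 6) in older mice, against 4.12, 6.06 and 9.64 CPM in younger mice. In NODxPWK mice on the normal diet, it had 1.65, 2.69 and 4.05 CPM in older mice, against 4.25, 6.36 and 11 CPM in younger mice. In PWKxNOD mice on the high diet, the values were 0.315, 1.56 and 2.58 CPM in older mice, against 4.68, 7.79 and 10.3 CPM in younger mice. All older mice lay below all younger mice in the last 2 of these comparisons, and a single high older mouse made the first overlap. In PWKxNOD mice on the normal diet, Nt5e had 1.58, 1.92 and 5.54 CPM in older mice, against 3.40, 6.15 and 6.70 CPM in younger mice, and the groups overlapped. Of the 24 older mice, 20 lay below the lowest of the 24 younger mice.

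Over all mice, Nt5e averaged 2.29 ± 1.27 CPM in older mice, against 6.63 ± 2.11 CPM in younger mice (SD, n = 24 each). The fitted log2 difference of older minus younger mice was -1.57 ± 0.16 (SE). Among all 11979 genes tested, edgeR's quasi-likelihood test called 1438, or 12%, different between the ages at an adjusted p under 0.05 (6.42% higher and 5.58% lower in older mice), and nothing is read from this for Nt5e because the same contrast had singled it out. The log2 difference of high minus normal diet was -0.51 ± 0.26 in older mice (95% interval -1.02 to 0.005) and 0.25 ± 0.20 in younger mice (-0.149 to 0.645). The difference between these, the diet by age interaction, was -0.76 ± 0.33 with an interval from -1.403 to -0.107. For this contrast 0.618% of all genes were called, and nothing is read from this for Nt5e. The interaction was -1.25 ± 0.33 without lane set 2 and -0.45 ± 0.38 without lane set 6. With a score of clock genes as covariate it was -0.60 ± 0.33, with an interval from -1.252 to 0.053. The intervals given here for Nt5e are not adjusted over genes and are a description, not a test. By cross, the log2 ratio of the means of high over normal diet was -0.348 in older and -0.095 in younger NODxPWK mice, and -0.808 in older and 0.54 in younger PWKxNOD mice, so only the PWKxNOD mice had opposite signs at the 2 ages. The age label 25 was carried only by 7 older mice on the normal diet, so it coincided with the diet contrast in older mice. Nt5e averaged 2.91 ± 1.44 CPM in these 7 and 2.47 ± 0.828 CPM in the 5 other older mice on the normal diet (SD). Older mice on the high diet averaged 1.85 ± 1.23 CPM (n = 12). The part of the label in the Nt5e diet differences was not tested. The log2 difference of NODxPWK minus PWKxNOD mice was 0.18 ± 0.17, with an interval from -0.14 to 0.507. In whole liver RNA, fewer cells that express a gene and less RNA per cell cannot be told apart.

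Of 5 markers of bile duct epithelium, the 2 with enough counts for a test also differed between the ages, where 12% of all genes did. The summed level of all 5 was 28.2, 45.9 and 122 CPM (lowest, median and highest) in older mice and 23.4, 31.4 and 40.04 CPM in younger mice. Spp1, with a median of 31.7 CPM, made up most of this sum, and Krt19, Krt7 and Epcam had no counts in 1, 5 and 2 mice. Sox9 and Spp1 rose in older mice. The rise of Spp1 was smaller in NODxPWK than in PWKxNOD mice (age by cross interaction -0.82 ± 0.15, adjusted p = 0.0117, edgeR). The part of bile duct cells in the Nt5e difference was not tested. The 8 stellate cell markers summed to 72.9, 140 and 267 CPM in older mice and to 65.9, 114 and 277 CPM in younger mice, so their ranges overlapped almost fully. The 6 markers of liver sinusoidal endothelium summed to 213, 277 and 325 CPM in older mice, against 234, 293 and 334 CPM in younger mice. Of these, Lyve1 (-0.27 ± 0.07, adjusted p = 0.00867) and Pecam1 (-0.16 ± 0.04, adjusted p = 0.00769) fell and Clec4g (0.12 ± 0.04, adjusted p = 0.0437) rose in older mice. The ranges of the sums overlapped, and their part in the Nt5e difference was not tested.

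The NOD allele carried most of the Nt5e messenger, and the age difference was seen in its counts. The NOD allele gave 1.87 ± 1.33 CPM in older mice, against 6.25 ± 2.19 CPM in younger mice (SD, n = 24 each). The PWK allele gave 0.421 ± 0.479 CPM in older mice and 0.380 ± 0.468 CPM in younger mice. In summed counts this was 57 PWK and 221 NOD counts in older mice, against 47 PWK and 775 NOD counts in younger mice. The pooled PWK share was 20.6% in older mice (exact Clopper-Pearson 95% interval 15.9 to 25.7%) and 5.70% in younger mice (4.23 to 7.53%), and these intervals cover counting error only. Over the groups the PWK over NOD log2 ratio was -3.27 ± 0.37 (adjusted p = 2.77e-10, edgeR). Whether allele shares took part in the choice of Nt5e is not recorded, so its allele p-values are not independent evidence. Of 9362 autosomal genes in the allele test, 4086, or 43.6%, differed between the alleles, 20.9% with the PWK and 22.8% with the NOD allele higher. The age effect on the Nt5e allele ratio itself did not pass the test (log2 difference of older minus younger 2.00 ± 0.84, adjusted p = 0.654), where 0.705% of genes did. In 22 of 48 mice the PWK allele had a count below 0.5, so a share in a single mouse rests on few counts.

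**Figure D1:**
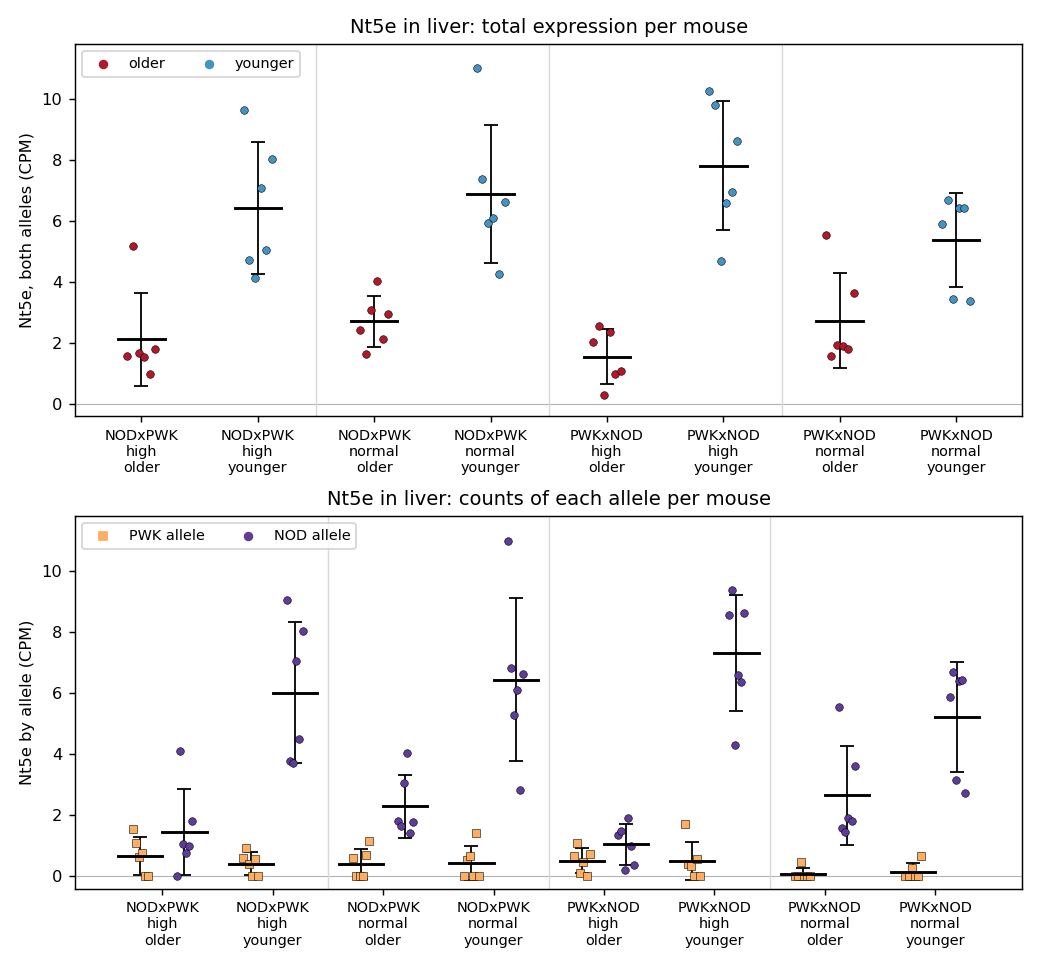
Nt5e in liver by group, with total CPM per mouse above and CPM of the PWK allele (squares) and the NOD allele (circles) below; bars show the mean and SD of 6 mice. Older groups sit left of the younger groups of the same cross and diet and are lower in total and NOD allele CPM in all 4 pairs, while the PWK allele stays below 2 CPM in every mouse.

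Upp2 encodes the liver form of uridine phosphorylase, which splits uridine into uracil and ribose phosphate at the head of pyrimidine breakdown (chromosome 2, 58567298 to 58792971, plus strand, ENSMUSG00000026839). Its messenger was lower in NODxPWK than in PWKxNOD mice at both ages and on both diets. In older mice on the high diet, Upp2 had 78.9, 111 and 239 CPM (lowest, median and highest of 6) in NODxPWK mice, against 201.3, 309 and 626 CPM in PWKxNOD mice. In older mice on the normal diet, it had 82.2, 119 and 199 CPM in NODxPWK mice and 119, 188 and 294 CPM in PWKxNOD mice. The ranges overlapped in both comparisons. In younger mice on the high diet, Upp2 had 156, 179.85 and 348 CPM in NODxPWK mice, against 242, 390.45 and 549 CPM in PWKxNOD mice, again with overlap. In younger mice on the normal diet, it had 139, 175 and 239 CPM in NODxPWK mice and 247, 322 and 373 CPM in PWKxNOD mice, and all NODxPWK mice lay below all PWKxNOD mice. The ratio of the means was lowest in older mice on the high diet, where Upp2 was 2.50-fold lower in NODxPWK mice. In the other 3 comparisons it was 1.59-fold, 1.84-fold and 1.72-fold lower in NODxPWK mice.

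Over all mice, Upp2 averaged 165 ± 63.9 CPM in NODxPWK and 313 ± 116.5 CPM in PWKxNOD mice (SD, n = 24 each), a fitted log2 difference of -0.91 ± 0.14. In the same fit 1281 genes, or 10.7% of all tested, were called different between the crosses (5.33% higher and 5.36% lower in NODxPWK mice), and nothing is read from this for Upp2. Older mice had 202 ± 123 CPM, against 276 ± 106 CPM in younger mice, a log2 difference of -0.51 ± 0.13, and their median was lower in 4 of 4 comparisons within a cross and diet. Mice on the high diet had 271 ± 140.3 CPM and mice on the normal diet 207 ± 85.5 CPM, a log2 difference of 0.35 ± 0.13. The diet comparison was widest in older PWKxNOD mice, with 342 ± 148 CPM on the high and 201.1 ± 73.6 CPM on the normal diet (n = 6 each). Averaged over both crosses, the log2 diet difference of Upp2 in older mice was 0.44 ± 0.19 (95% interval 0.07 to 0.818). By cross, the log2 ratio of the means was 0.114 in older NODxPWK mice and 0.767 in older PWKxNOD mice, where 1 mouse on the high diet had 626 CPM. With a score of clock genes as covariate, the averaged difference was -0.08 ± 0.16 (95% interval -0.402 to 0.233). This contrast also coincided with the age label 25, which only 7 older mice on the normal diet carried. Upp2 averaged 168 ± 74.1 CPM in these 7 and 158 ± 69.4 CPM in the 5 other older mice on the normal diet (SD). The part of the label in the Upp2 diet difference was not tested. The diet by cross interaction for Upp2 was -0.38 ± 0.27, with an interval from -0.905 to 0.147. For this contrast 0.125% of all genes were called (0.0668% positive and 0.0584% negative), and nothing is read from this for Upp2. The intervals given here for Upp2 are not adjusted over genes and are a description, not a test.

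Both alleles of Upp2 were lower in NODxPWK mice, the NOD allele more so. The NOD allele gave 72.9 ± 34.8 CPM in NODxPWK mice and 161 ± 69.2 CPM in PWKxNOD mice. The PWK allele gave 92.1 ± 30.2 CPM in NODxPWK mice, against 152 ± 49.04 CPM in PWKxNOD mice. The PWK share per mouse was 57.1 ± 5.39% in NODxPWK mice and 49.6 ± 4.56% in PWKxNOD mice, and it was above 50% in 23 of 24 and in 13 of 24 mice. The paternal PWK allele was thus the higher one in NODxPWK mice, whereas the alleles were near balance on average in PWKxNOD mice. Among older PWKxNOD mice the share was 46.8 ± 3.60% on the high and 54.4 ± 4.61% on the normal diet. Among younger PWKxNOD mice it was 48.4 ± 2.59% on the high and 48.7 ± 3.86% on the normal diet (SD, n = 6 each). Averaged over both crosses, the maternal over paternal log2 ratio was -0.22 ± 0.04 (adjusted p = 0.000778, edgeR), where a negative value means a higher paternal allele. Upp2 was 1 of 25 genes, or 0.267% of the 9362 tested, that passed this test, and the paternal allele was the higher one in 0.150% and the maternal one in 0.117%. The PWK over NOD log2 ratio over all groups was 0.19 ± 0.04 (adjusted p = 4.19e-05). Whether allele shares took part in the choice of the genes is not recorded, so these p-values are not independent evidence.

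**Figure D2:**
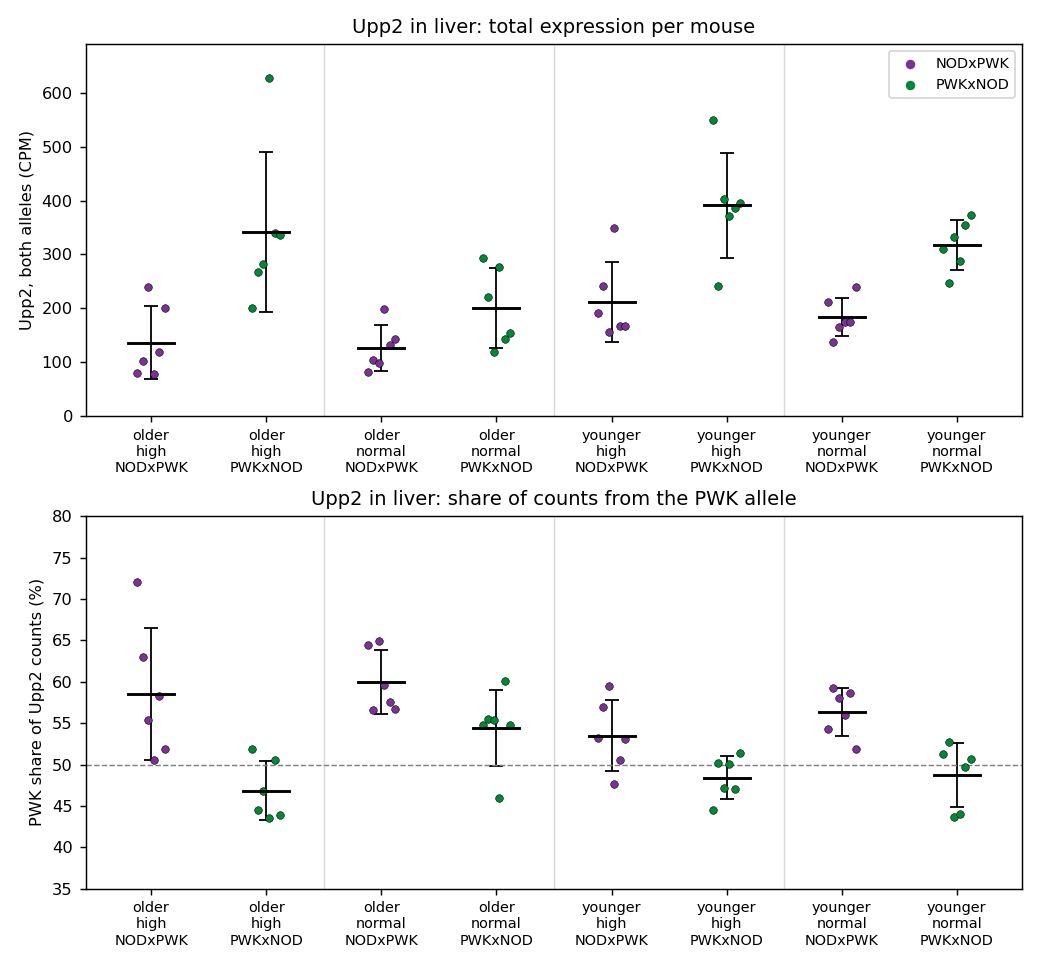
Upp2 in liver by group, with total CPM per mouse above and the PWK share of Upp2 counts in percent below; bars show the mean and SD of 6 mice and the dashed line marks 50%. NODxPWK groups sit left of the PWKxNOD groups of the same age and diet, with lower CPM and a higher PWK share in all 4 pairs.

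Upp2 also varied between mice of the same group, and it did so together with clock genes. A clock score per mouse was taken as the mean log2 CPM of Ciart, Dbp, Nr1d2, Per2, Per3 and Tef minus that of Arntl, Clock, Nfil3 and Npas2, which peak at the opposite time of day. Within groups, Upp2 deviated with this score over the 48 mice (Pearson r = 0.66, Spearman rho = 0.65, and r = 0.62 without the 2 mice with the most extreme scores). Within the 6 lane sets, each with 1 mouse of every group, r ran from 0.12 to 0.93. Both measures come from the same libraries. The score itself differed between the crosses, with -2.82, 0.83 and 2.55 (lowest, median and highest of 24) in NODxPWK mice and 0.87, 2.80 and 4.16 in PWKxNOD mice. With the score as a covariate, Upp2 had a slope of 0.36 ± 0.06 log2 units per unit of score. In that fit its cross difference was -0.02 ± 0.18, its age difference -0.10 ± 0.12 and its diet difference -0.01 ± 0.11. The score averaged 0.138 in NODxPWK and 2.69 in PWKxNOD mice, 0.797 in older and 2.03 in younger mice, and 1.87 on the high and 0.962 on the normal diet. The part of the score and that of these factors can therefore not be fully told apart. Fewer genes among all those tested were also called for cross, age and diet with this covariate, as given in the last section. The slope was computed after the values had been seen and has no p-value here, and no hour of tissue collection was stated for any mouse. In a limma fit of the allele ratios with the same covariate, the parent-of-origin ratio of Upp2 was -0.16 ± 0.07 and did not pass the test (adjusted p = 1), where 9 genes, or 0.0961%, did (0.0534% with the maternal and 0.0427% with the paternal allele higher). Within groups the PWK share of Upp2 was lower in mice with more Upp2 (r = -0.51, rho = -0.50, 48 mice), while its correlation with the score was -0.17.

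**Figure D3:**
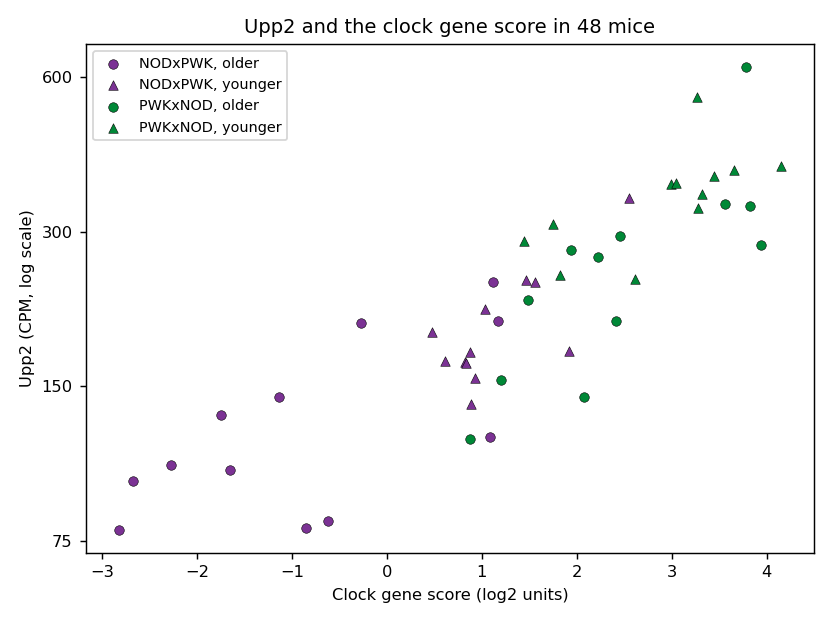
Total Upp2 in CPM (log axis) against the clock gene score in log2 units for 48 mice, coloured by cross, with circles for older and triangles for younger mice. NODxPWK mice lie at scores up to 2.55 and PWKxNOD mice at 0.87 and above, and within groups the correlation was 0.66.

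The other members had weaker relations with the score, and by Pearson's r those of Nt5e and Ada were negative. Uox had an r of 0.47 within groups and a slope of 0.13 ± 0.04 (adjusted p = 0.054, edgeR), while 182 of all genes, or 1.52%, passed the test of the slope (0.593% positive and 0.927% negative). For Nt5e, r was -0.24 and the age difference was -1.80 ± 0.20 with the score in the fit. Ada also had an r of -0.24 (rho = -0.26). Among the genes most like Upp2 within groups were Slc7a2, a cationic amino acid transporter (r = 0.82), Tdo2, tryptophan dioxygenase (r = 0.77), Mpzl2 (r = 0.77) and Osbpl1a (r = 0.75), out of 10359 genes compared over 48 mice. The genes most like Nt5e were Acnat2 (r = 0.67, rho = 0.55), Chd1l (r = 0.64, rho = 0.51), Spg20 (r = 0.63, rho = 0.57), Xpot (r = 0.62, rho = 0.57) and Cyp2c38 (r = 0.61, rho = 0.51). They were picked for the highest r among the 10359 genes, and Nt5e had a mean of only 22.9 counts per mouse. Of the genes named as most like Nt5e, only Cyp2c38 had an age difference near that of Nt5e (log2 -1.42, against -0.27 to 0.03 for the other 4).

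The reductive chain from uracil to beta-alanine consists of Dpyd, dihydropyrimidine dehydrogenase, its first and rate-limiting step, of Dpys, dihydropyrimidinase, which opens the ring, and of Upb1, beta-ureidopropionase, which makes the final cut. Among the 7 members with a test, none differed with diet over all mice, where 0.342% of all genes did (0.175% higher and 0.167% lower on the high diet). In older mice, Dpys and Dpyd fell on the high diet, where 3.71% of all genes were called, 1.90% higher and 1.81% lower. Dpyd (chromosome 3, 118562129 to 119432924) had 267, 334 and 366 CPM (lowest, median and highest of 12) in older mice on the high diet and a log2 difference from the normal diet of -0.22 ± 0.06 (adjusted p = 0.0365, edgeR). Dpys (chromosome 15, 39768487 to 39857470) had 141, 187 and 215 CPM in older mice on the high diet and a log2 difference of -0.25 ± 0.07 (adjusted p = 0.0263). Upb1 (chromosome 10, 75401115 to 75441679) had a log2 difference of -0.15 ± 0.05 that did not pass (adjusted p = 0.115). In younger mice the same diet differences were -0.05 ± 0.06 for Dpyd, 0.07 ± 0.07 for Dpys and -0.0002 ± 0.0541 for Upb1, and edgeR called 0 genes, with 573 at an unadjusted p under 0.05, while DESeq2 called 10. The diet by age interaction did not pass for Dpyd, Dpys or Upb1 (adjusted p = 0.467, 0.111 and 0.43).

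These diet differences in older mice coincided with an age label. Among the older mice on the normal diet, 7 had the label 25 (5 NODxPWK and 2 PWKxNOD), which no other mouse had. Dpyd had 392, 432 and 470 CPM (lowest, median and highest) in these 7 mice, against 254, 326 and 352 CPM in the 5 other older mice on the normal diet, so the 7 mice lay above all other older mice. Dpys had 195, 242 and 271 CPM in the mice labelled 25 and 170, 208 and 223 CPM in the 5 others, with overlap. Xdh had 46.98, 52.5 and 64.6 CPM in the mice labelled 25 and 37.7, 41.4 and 47.3 CPM in the 5 others. Without the 7 mice, the log2 difference of high minus normal diet in older mice was 0.01 ± 0.08 for Dpyd (adjusted p = 0.99), -0.11 ± 0.10 for Dpys (adjusted p = 0.831) and 0.01 ± 0.12 for Xdh, and 5 genes were called in place of 445. Without the 10 mice in which 8 exocrine pancreas markers summed to at least 10 CPM, the values were -0.21 ± 0.08 for Dpyd (adjusted p = 0.301) and -0.16 ± 0.07 for Dpys (adjusted p = 0.412).

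The NOD allele of Dpyd and Dpys was the higher one in every mouse. The PWK share of Dpyd was 37.4% over all counts, with mice between 31.7 and 41.8%, and its PWK over NOD log2 ratio was -0.75 ± 0.02 (adjusted p = 1.13e-33). In all 48 mice the PWK share of Dpyd was below 50%, and Dpys, at 31.1 to 49.7%, was also below 50% in all of them (log2 -0.35 ± 0.03, adjusted p = 1.78e-13). Upb1 was close to balance at 48.0% (log2 -0.13 ± 0.02, adjusted p = 3.16e-06), with 7 of 48 mice above 50%. None of Dpyd, Dpys and Upb1 had a parent-of-origin, age or diet effect on the allele ratio that passed the test, and for diet 0.0214% of all genes did, each of them with a negative sign.

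In purine breakdown, Ada, adenosine deaminase, which converts adenosine to inosine, was near the limit of detection. Ada (chromosome 2, 163726584 to 163750239) had between 1 and 30 counts per mouse, 1.37 ± 0.547 CPM in older mice, against 1.65 ± 0.988 CPM in younger mice, and no difference that passed a test. The 95% interval of its age difference ran from -0.674 to 0.109 on the log2 scale, and its counts were too few for the allele test. Gda, guanine deaminase, which converts guanine to xanthine, rose in older mice and, averaged over ages and diets, was lower in NODxPWK mice. Gda (chromosome 19, 21391307 to 21473445) had a mean of 24.7 ± 6.43 CPM in older mice, against 20.5 ± 4.71 CPM in younger mice, a log2 difference of 0.27 ± 0.08 (adjusted p = 0.0219). It was the only one of the 7 members with a test that passed for age, where 12% of all genes did. By cross, it averaged 20.4 ± 4.22 CPM in NODxPWK and 24.8 ± 6.69 CPM in PWKxNOD mice, a log2 difference of -0.27 ± 0.08 (adjusted p = 0.0212). It was again 1 of 7, where 10.7% of all genes passed. The age call was kept in 11 and the cross call in 9 of 16 alternatives, with adjusted p up to 0.124 and 1. Without the 7 mice labelled 25 the age difference was 0.26 ± 0.10 (adjusted p = 0.124) and the cross difference -0.16 ± 0.10 (adjusted p = 0.426). Of 9 exocrine pancreas markers, 6 were lower in NODxPWK mice, and without the 10 mice with at least 10 CPM of pancreas markers the age difference was 0.23 ± 0.09 (adjusted p = 0.114) and the cross difference -0.26 ± 0.09 (adjusted p = 0.0603). The cross difference was not alike on both diets. On the high diet, Gda averaged 20.96 ± 1.36 CPM in older NODxPWK mice, against 30.1 ± 8.34 CPM in older PWKxNOD mice, and 16.8 ± 4.28 CPM in younger NODxPWK mice, against 24.8 ± 5.68 CPM in younger PWKxNOD mice. On the normal diet, it averaged 25.3 ± 3.49 CPM in older NODxPWK mice, against 22.6 ± 7.02 CPM in older PWKxNOD mice, and 18.7 ± 1.17 CPM in younger NODxPWK mice, against 21.8 ± 2.19 CPM in younger PWKxNOD mice (SD, n = 6 each). The older mice on the normal diet thus had the opposite sign. The diet by cross interaction of Gda was -0.53 ± 0.16 (95% interval -0.848 to -0.211) and did not pass the adjusted test (adjusted p = 0.17). Its alleles did not differ in the test, with a PWK over NOD log2 ratio of 0.006 ± 0.069 and a 95% interval from -0.129 to 0.141.

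Xdh, xanthine dehydrogenase, and Uox, which turns uric acid into the precursor of allantoin, did not pass the adjusted test for age or cross. Xdh (chromosome 17, 73883895 to 73950196) had a mean of 45.1 ± 8.42 CPM in older mice, against 47.03 ± 6.33 CPM in younger mice, with a 95% interval of the log2 difference from -0.171 to 0.041. On the high diet in older mice it had 33.3, 40.6 and 52.0 CPM, and its diet difference of -0.25 ± 0.08 missed the threshold (adjusted p = 0.0548). Uox (chromosome 3, 146570426 to 146632305) had a mean of 775 ± 151 CPM in older mice, against 853 ± 109 CPM in younger mice, a log2 difference of -0.14 ± 0.07 with a 95% interval from -0.272 to -0.011 (unadjusted p = 0.0384, adjusted p = 0.178, edgeR). In NODxPWK mice Uox averaged 783 ± 149 CPM, against 844 ± 118 CPM in PWKxNOD mice (log2 -0.11 ± 0.07, adjusted p = 0.324). Age by cross interactions of 0.35 ± 0.11 for Xdh, 0.30 ± 0.10 for Dpys and 0.28 ± 0.09 for Dpyd did not pass either (adjusted p = 0.204, 0.256 and 0.215), and 0.0501% of all genes did (0.0167% positive and 0.0334% negative).

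**Figure D4:**
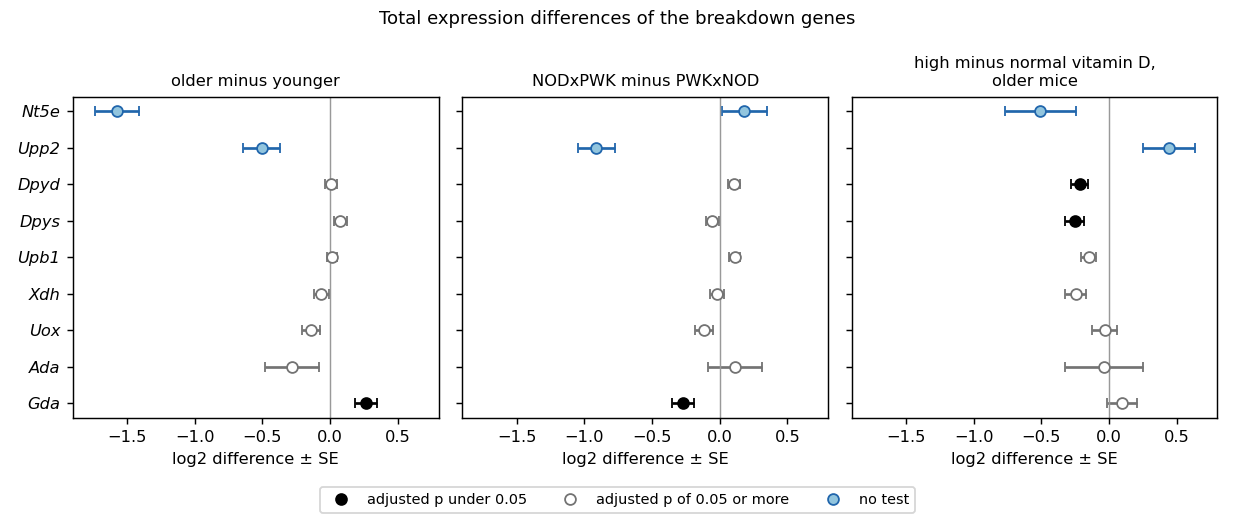
Log2 differences ± SE in total expression for the 9 genes, for older minus younger mice, for NODxPWK minus PWKxNOD mice and for high minus normal vitamin D in older mice. Filled black points passed an adjusted p of 0.05 (Gda for age and cross, Dpyd and Dpys for diet), open points did not, and the blue points of Nt5e and Upp2 have no test.

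Of the 7 genes with a mean of more than 100 counts per mouse, Xdh had the widest spread of the PWK share between mice. Its pooled share was 37.9% and its log2 ratio -0.73 ± 0.12 (adjusted p = 1.59e-06), but mice ranged from 9.11 to 63.7%. Within groups the SD of its share was 12.5 percentage points, against 8.29 points for Gda, 4.49 for Upp2 and 2.83 for Uox, and genes with fewer counts have more counting error in their share. Counting error alone would give an SD of 3.36 points for Xdh, 4.94 for Gda, 1.65 for Upp2 and 0.824 for Uox. The SD seen was 3.72 times this value for Xdh, 1.68 times for Gda, 2.72 times for Upp2 and 3.44 times for Uox. Of all 68-base windows of Xdh transcripts, 6.10% also occurred in other genes, compared with 0.744% for Upb1, 0.081% for Gda and none for the other 6 genes. The part of these shared windows in the spread was not tested. Uox had a pooled PWK share of 47.1% (log2 -0.17 ± 0.02, adjusted p = 4.27e-08). Over the 8 genes in the allele test, 7 differed between the alleles, where 43.6% of all genes did, and the NOD allele was higher in 6 of these. The 8 include Nt5e and Upp2, and whether allele shares took part in their choice is not recorded. Nothing is therefore read from this count.

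**Figure D5:**
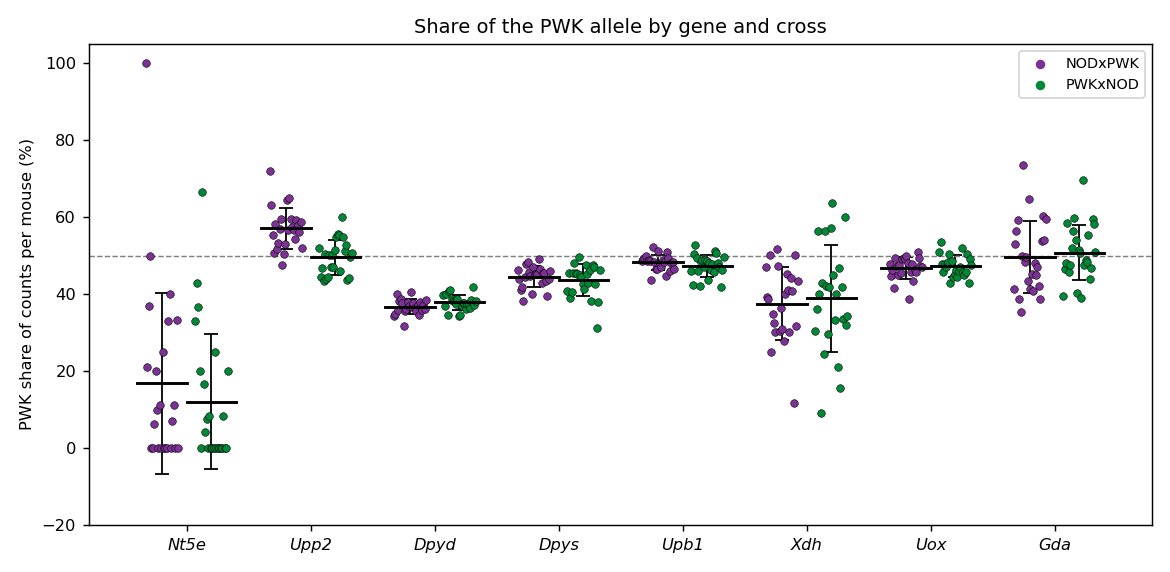
PWK share of counts in percent per mouse for the 8 genes in the allele test, NODxPWK mice left of PWKxNOD mice; bars show the mean and SD of 24 mice and the dashed line marks 50%. Nt5e is lowest, Dpyd lies below 50% in all mice, Upp2 is higher in NODxPWK than in PWKxNOD mice, and Xdh is spread from 9.11 to 63.7%.

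Of the 36 pairs of members, 10 had a negative correlation within groups. The highest correlations within groups over 48 mice were those of Dpyd with Xdh (r = 0.66, rho = 0.68) and of Upp2 with Uox (r = 0.61, rho = 0.59), Xdh (r = 0.52) and Gda (r = 0.48). Dpys and Uox had the lowest value (r = -0.25, rho = -0.27). These are descriptions over mice whose group means were removed and which share lanes and processing.

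Among other genes of purine breakdown, Urad, which acts after urate oxidase, was the only one of 9 tested that passed a test. It fell with age (log2 -0.28 ± 0.07, adjusted p = 0.00413) and was lower in NODxPWK mice (-0.24 ± 0.07, adjusted p = 0.0137). Of all genes tested, 12% were called for age and 10.7% for cross, so 1 of 9 is near the share of all genes. Of 5 other pyrimidine breakdown genes tested, Aldh6a1, which acts on the aldehyde products of the chain, rose with age (0.14 ± 0.04, adjusted p = 0.0122). Tymp, thymidine phosphorylase, was higher in NODxPWK mice, with 106 ± 28.8 CPM against 79.3 ± 19.6 CPM in PWKxNOD mice (0.43 ± 0.10, adjusted p = 0.00172). Of 7 other nucleotidases and phosphatases tested, 2 rose and none fell with age, where 6.42% of all genes rose and 5.58% fell. Enpp3 averaged 68.9 ± 11.3 CPM in older mice, against 49.1 ± 8.69 CPM in younger mice (0.49 ± 0.06, adjusted p = 2.53e-08), and Entpd5 rose by 0.25 ± 0.04 (adjusted p = 4.7e-05). By cross, Enpp3 was higher (0.26 ± 0.06) and Alpl, alkaline phosphatase, lower (-0.37 ± 0.09) in NODxPWK mice.

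Of 6 nucleoside and urate transporters tested, 1 rose and 1 fell with age, where 6.42% of all genes rose and 5.58% fell. Abcg2, which exports urate, rose with age to 85.8 ± 15.1 CPM in older mice, against 64.6 ± 9.53 CPM in younger mice (0.41 ± 0.06, adjusted p = 2.4e-07). Slc29a1, an equilibrative nucleoside transporter, fell with age (-0.18 ± 0.06, adjusted p = 0.0331) and on the high diet in older mice (-0.29 ± 0.08, adjusted p = 0.0322). That diet contrast coincided with the age label described above for Dpyd and Dpys. The value of Slc29a1 without the mice that carried the label is not given here. Adora1, the only adenosine receptor of 4 with enough counts, fell with age (-0.23 ± 0.07, adjusted p = 0.0212). Among 11 salvage genes, none passed for age, where 12% of all genes did. By cross, Hprt, an X-linked gene that males inherit from the dam only, was higher (1.34 ± 0.07, adjusted p = 1e-20) and Tk1, thymidine kinase, lower (-0.57 ± 0.12, adjusted p = 0.000679) in NODxPWK mice.

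Of the 19 nucleotide synthesis genes tested, 4 fell and 1 rose with age, where 5.58% of all genes fell and 6.42% rose, and no test of the list was made. Of 13 purine synthesis genes, Gmps (-0.18 ± 0.05), Paics (-0.14 ± 0.04) and Ppat (-0.20 ± 0.07) fell and Prps2 (0.32 ± 0.08) rose, and their median was -0.07 against -0.0035 for all genes. Of 6 pyrimidine synthesis genes tested, Cad, which starts the pathway, fell (-0.44 ± 0.10, adjusted p = 0.0017), and their median was -0.149. By cross, Ppat was lower (-0.30 ± 0.07) and Prps1, which is X-linked, higher (0.29 ± 0.06) in NODxPWK mice. The median of the 9 breakdown genes was -0.065 for age, -0.019 for cross and -0.151 for diet in older mice, against -0.0035, 0.0016 and -0.0076 over all genes. The 9 include Nt5e and Upp2, which were singled out by their total levels, so nothing is read from the age and cross medians. The diet contrast in older mice coincided with the age label described above for Dpyd and Dpys. The part of that label in the diet median was not tested.

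Summed counts ranged from 2.03 M to 7.48 M per mouse with a median of 5.27 M, and the 6 mice of one barcode were the shallowest with at most 3.09 M. Hepatocyte markers were abundant in all mice, Alb with at least 36736 CPM, but some differed between groups. Of 10 tested, Alb (0.29 ± 0.05) and Fgb (0.25 ± 0.05) were higher in NODxPWK mice, where 10.7% of all genes were called. In older mice, Alb (0.18 ± 0.05) and Cyp2e1 (0.30 ± 0.07) rose and Cps1 (-0.42 ± 0.07) fell, where 12% of all genes were called. Their part in the differences of the members was not tested. The 9 exocrine pancreas markers summed to 15.2, 27.3 and 211 CPM in NODxPWK mice and to 20.6, 34.1 and 1501 CPM in PWKxNOD mice. Without the 10 mice with at least 10 CPM of pancreas markers other than Cela1 the cross difference of Upp2 was -0.93 and the age difference of Nt5e -1.57.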

How the data were processed

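Per the labels' protocols, livers went into RNAlater, a Trizol kit gave the RNA, and 68 bp reads came from 2 runs of each library. The deposited values are expected counts per Ensembl gene, given by the authors in 1 table per allele and named as EMASE output, a tool that shares out reads between alleles. The submitters' processing notes name GRCm38 and mm10 as builds, and Bowtie 1.1.2 and CASAVA 1.7.0 as tools. No version of EMASE and no annotation were stated. Symbols and coordinates came from GENCODE M21 on GRCm38, which matched 37607 of 38924 genes; the other 1317 held 0.159% of the counts.

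Both alleles were summed and rounded, filtered with filterByExpr (11979 genes), scaled by TMM and fitted with 8 group means in edgeR 4.0.16 (R 4.3.3). Contrasts were tested with the robust quasi-likelihood test, two-sided, with Benjamini-Hochberg adjustment over all genes and a threshold of 0.05. Main effects compare 24 with 24 mice. CPM used TMM-scaled library sizes. Alleles were fitted as 2 columns per mouse with the mouse as a fixed effect, over 9362 autosomal genes with a mean of at least 20 counts. X-linked counts went to the strain named first by 93.41 to 95.71%. Likeness was Pearson's r of log2(CPM + 0.5) deviations from group means, over genes with a mean of at least 2 CPM.

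The replicate number marks a lane set, as each lane held 1 mouse of every group. Deviations correlated by -0.005 on average within and 0.001 between lane sets. The members, gene lists and tests were chosen with earlier results of these data known. Named were all members, genes of each list past the threshold (up to 6 per contrast by p-value) and the 5 genes most like Nt5e and Upp2, 1 of which is not reported here. The alternatives tried were RLE size factors, DESeq2 1.42.0, counts not rounded, other filters, the replicate block, lane sets or mice left out, a clock score covariate, and limma 3.58.1 for alleles. The fits were tested on simulated data. Of the 120 pairs of mice within groups, none was as close as sampling noise (4.34 to 54.3 chi-square units per gene).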

Additional observations from a re-analysis of the deposited data

Results flagged for a closer look

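Total levels of the 9 genes, as log2(CPM + 0.5), and PWK shares of 8 of them were checked for a mouse far from the other 5 of its group, over 136 sets of 6 mice. In 10 of them the gap between the extreme mouse and its neighbour exceeded Dixon's critical share of the whole range, and chance flags about 1 in 20 such sets.

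For Nt5e, 1 older NODxPWK mouse on the high diet had 5.19 CPM, against 1.81 CPM in the next mouse. The PWK share of Nt5e was 33.2% in 1 younger NODxPWK mouse on the normal diet (next 11.1%), and 24.9% in 1 older PWKxNOD mouse on the normal diet whose 5 group mates were at 0. The PWK share of Dpyd was low at 31.7% in 1 younger NODxPWK mouse on the high diet (next 35.7%) and at 34.2% in 1 younger PWKxNOD mouse on the high diet (next 37.5%). For Upb1, 1 older PWKxNOD mouse on the high diet was low at 215 CPM (next 267 CPM), and the PWK share was low at 41.997% in 1 younger PWKxNOD mouse on the high diet (next 47.02%). Xdh was high at 55.0 CPM in 1 younger PWKxNOD mouse on the normal diet (next 47.9 CPM). The PWK share of Uox was high at 52.0% in 1 older PWKxNOD mouse on the normal diet (next 46.96%). Ada was high at 2.77 CPM in 1 older NODxPWK mouse on the normal diet (next 1.28 CPM). On the linear CPM scale, which was looked at after the data had been seen, 2 more mice stood as far apart. Upp2 was high at 626 CPM in 1 older PWKxNOD mouse on the high diet (next 339.8 CPM), and Ada was high at 5.39 CPM in 1 younger NODxPWK mouse on the normal diet (next 2.43 CPM).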

How the results depend on the processing

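The PWK over NOD ratios of Nt5e, Upp2, Dpyd, Dpys, Upb1, Xdh and Uox passed the test with the same sign in all 12 alternatives. The Nt5e age difference ranged from -1.80 to -1.50 and the Upp2 cross difference from -0.97 to -0.83, except for -0.02 with the clock score as covariate. The Upp2 parent-of-origin ratio passed in 11 of 12, and not in limma with the clock score. The diet difference of Dpyd in older mice reversed to 0.0108 without the mice labelled 25 and passed in 7 of 16 alternatives, that of Dpys in 8 of 16. With the replicate block, no member's call changed, and the age by cross interaction had 3 genes called in place of 6, the only count it moved by more than 1.5 times. The depth limits Nt5e and Ada, with 22.9 and 7.60 counts per mouse.

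Counts of genes called moved by more than 1.5 times as follows, and the cause was not tested. For age (1438 genes) 777 were called without the mice labelled 25, 739 with the clock score and 893 without the 10 mice with at least 10 CPM of pancreas markers (hereafter mice with pancreas transcripts). For diet (41) it was 124 with DESeq2, 24 with no low-count filter, 15 without the shallowest barcode, and 0 without the mice labelled 25, with the clock score or without mice with pancreas transcripts (edgeR, with 1054, 854 and 1042 at an unadjusted p under 0.05; DESeq2 in all mice called 124). For cross (1281) it was 847 without the mice labelled 25 and 62 with the clock score. For diet by age (74) it was 167 with DESeq2, 23 with no filter, 0 without the mice labelled 25 (edgeR, 1086 unadjusted), 38 without the shallowest barcode, 11 with the clock score and 1 without mice with pancreas transcripts. For age by cross (6) it was 40 with DESeq2, 3 with the replicate block, 0 without the mice labelled 25 (edgeR, 1132 unadjusted) and 2 without the shallowest barcode. For diet by cross (15) it was 46 with DESeq2, 2 with no filter, 4 without the mice labelled 25, 4 with the clock score and 0 without mice with pancreas transcripts (edgeR, 1850 unadjusted). For diet in older mice (445) it was 290 with no filter, 5 without the mice labelled 25, 53 with the clock score and 19 without mice with pancreas transcripts. For diet in younger mice (0 by edgeR, 573 unadjusted) it was 10 with DESeq2 and 1 without the mice labelled 25. For the parent of origin (25) limma with the clock score called 9. For age on the allele ratio (66) it called 37, and for diet on the allele ratio (2) 1, against 16 without the mice labelled 25. The slope on the clock score (182) was called for 116 genes without mice with pancreas transcripts and 106 without the shallowest barcode.

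Leaving out each lane set in turn gave 6 to 40 genes for diet, 4 to 90 for diet by age, 0 to 8 for age by cross, 0 to 90 for diet by cross, 176 to 439 for diet in older mice, 16 to 23 for the parent of origin, 39 to 51 for age on the allele ratio and 0 to 2 for diet on the allele ratio. The 0 counts are edgeR's, with 800 to 997 genes at an unadjusted p under 0.05 for age by cross, 967 to 1811 for diet by cross and 393 to 403 for diet on the allele ratio.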
